A study of Mus musculus with 11 samples.

Results

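Dbp, Tef, Hlf and Nfil3 encode 4 transcription factors at the output of the circadian clock, and their transcripts were measured in mouse colon after imatinib. They were taken as every probe set that the array's annotation assigns to exactly 1 of these symbols or an older synonym. That rule found 8 probe sets of 4 genes, among 45037 probe sets and 18193 genes in all. Dbp had 2, Tef 3, Hlf 2 and Nfil3 1, and no probe set named one of the 4 together with another gene. The series holds 11 arrays of total RNA from the colon of adult C57BL/6 mice. Of these, 4 came from 3 h after an imatinib injection, 4 from 12 h after it, and 3 from colon before imatinib, called control here. Imatinib inhibits the kinase Abl, together with Kit and the PDGF receptors, and the title of the series places EphB and Abl signalling in tumours of the intestine. The labels name no genetic change in any group. They do not say whether the arrays of a group came from different mice, and the p-values then cover the variation among these arrays, which may be technical.

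The factors DBP, TEF and HLF form the PAR bZIP family, basic leucine zipper proteins with a domain rich in proline and acidic amino acids, and they activate transcription from a DNA sequence called the D-box. NFIL3, also known as E4BP4, is a bZIP protein without the PAR domain that binds the same sequence and represses. In mouse liver Dbp is driven through E-boxes by the clock activators CLOCK and BMAL1, while Nfil3 is repressed by the REV-ERB receptors and peaks in the opposite phase. In mouse gut NFIL3 is known from innate lymphoid cells, whose development needs it, and from the epithelium, where it takes part in the daily control of lipid uptake. Drug, injection and clock hour of harvest cannot be told apart in any comparison with control. The labels give neither the clock hour of any harvest nor whether the controls got vehicle. Time since injection and clock hour of harvest likewise cannot be told apart between 12 h and 3 h.

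The stretches just upstream of the 4 genes are shown because the known regulators of these genes act through short DNA letters of this kind and the PAR transcripts and Nfil3 are set against each other throughout. Each stretch is the 250 bases before an annotated start, from RefSeq on GRCm38.p6, written 5′ to 3′ on the gene's strand. Capitals mark matches on either strand to the E-box CACGTG, the D-box forms TTATGTAA, TTACGTAA and TTATATAA, the cAMP response element TGACGTCA, its core TGACG, or the REV-ERB and ROR site AGGTCA.
Dbp (chr7:45704997-45705246, + strand): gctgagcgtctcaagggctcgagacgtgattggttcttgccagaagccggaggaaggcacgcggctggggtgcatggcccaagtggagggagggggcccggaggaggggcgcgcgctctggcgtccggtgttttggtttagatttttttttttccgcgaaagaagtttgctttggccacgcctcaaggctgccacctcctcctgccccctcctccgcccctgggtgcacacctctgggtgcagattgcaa
Tef, first start (chr15:81802423-81802672, + strand): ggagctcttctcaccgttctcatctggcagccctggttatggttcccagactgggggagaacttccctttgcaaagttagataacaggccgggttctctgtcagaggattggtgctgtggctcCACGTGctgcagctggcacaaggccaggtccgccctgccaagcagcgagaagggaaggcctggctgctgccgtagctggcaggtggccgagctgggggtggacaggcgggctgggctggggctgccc
Tef, second start (chr15:81811164-81811413, + strand): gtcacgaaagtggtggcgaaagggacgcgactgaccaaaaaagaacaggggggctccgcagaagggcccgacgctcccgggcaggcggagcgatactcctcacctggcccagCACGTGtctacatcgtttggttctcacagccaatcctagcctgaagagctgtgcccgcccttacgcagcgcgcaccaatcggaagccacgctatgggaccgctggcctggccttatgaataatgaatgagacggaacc
Hlf (chr11:90390918-90391167, - strand): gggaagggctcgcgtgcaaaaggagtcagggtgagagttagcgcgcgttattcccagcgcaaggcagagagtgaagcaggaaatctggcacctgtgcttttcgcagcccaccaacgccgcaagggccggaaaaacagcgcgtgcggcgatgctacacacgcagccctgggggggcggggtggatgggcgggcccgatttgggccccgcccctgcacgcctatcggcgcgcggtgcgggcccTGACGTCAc
Nfil3 (chr13:52981040-52981289, - strand): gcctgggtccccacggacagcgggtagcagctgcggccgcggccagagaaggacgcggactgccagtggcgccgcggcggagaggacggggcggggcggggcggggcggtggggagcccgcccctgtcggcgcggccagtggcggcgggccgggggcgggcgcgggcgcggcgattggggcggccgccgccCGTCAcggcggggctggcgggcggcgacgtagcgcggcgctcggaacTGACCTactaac
The gene spans were chr7:45705100-45710203 for Dbp, chr15:81802673-81826863 for Tef, chr11:90336535-90390917 for Hlf and chr13:52967209-52982878 for Nfil3. The first Tef stretch and the Hlf stretch lay outside the spans, while the second Tef stretch, the Nfil3 stretch and 147 bases of the Dbp stretch lay inside, downstream of the start of another transcript model. An E-box began at position -127 from the first Tef start and at position -138 from the second. The Hlf stretch held the cAMP response element at position -9, and the 2 matches to TGACG there lie inside it. The Nfil3 stretch held the core TGACG at position -59 and AGGTCA, as its reverse complement, at position -12. None of the 7 motifs was in the Dbp stretch, and no D-box form was in any of the 5. Of 32851 such stretches over all genes, 6.02% held CACGTG, 1.55% TGACGTCA, 17.8% TGACG and 14% AGGTCA, and the D-box forms were in 0.819%, 0.113% and 0.527% in the order given above. These matches describe letters and are not measured binding.

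Before the members, the arrays were checked against their labels and for foreign RNA. The 8 colon epithelium markers (Vil1, Cdx1, Cdx2, Car1, Slc26a3, Muc2, Krt20 and Lgals4) were bright on every array, with a lowest signal of 417.2, and 1 of them, Cdx2, rose at 3 h. Transcripts of pancreatic acinar cells stood out on 5 arrays, namely control replicate 1, 3 h replicate 3 and 12 h replicates 1, 3 and 4. The summed signal of 8 acinar markers reached 73140 on these arrays and was at most 1429 on the other 6. Control RNA of the poly-A kind gave a mean log2(signal + 16) of 6.84 to 7.02 on 3 h arrays and 7.15 to 7.91 on 12 h arrays, against 6.73 to 6.91 on control arrays, and the part of this difference in the 12 h results was not tested. The ratio of 3′ to 5′ signal of Actb, a measure of RNA integrity, lay between 1.27 and 1.38 at 3 h and 1.23 and 1.37 at 12 h, against 1.27 to 1.34 in control. Calls below rest on limma fitted to log2(signal + 16) of all 18193 genes, each represented by its brightest probe set, with Benjamini-Hochberg adjusted p under 0.05. The offset of 16 shrinks changes of dim probe sets, and a log2 change is the first named group minus the second.

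**Figure D1:**
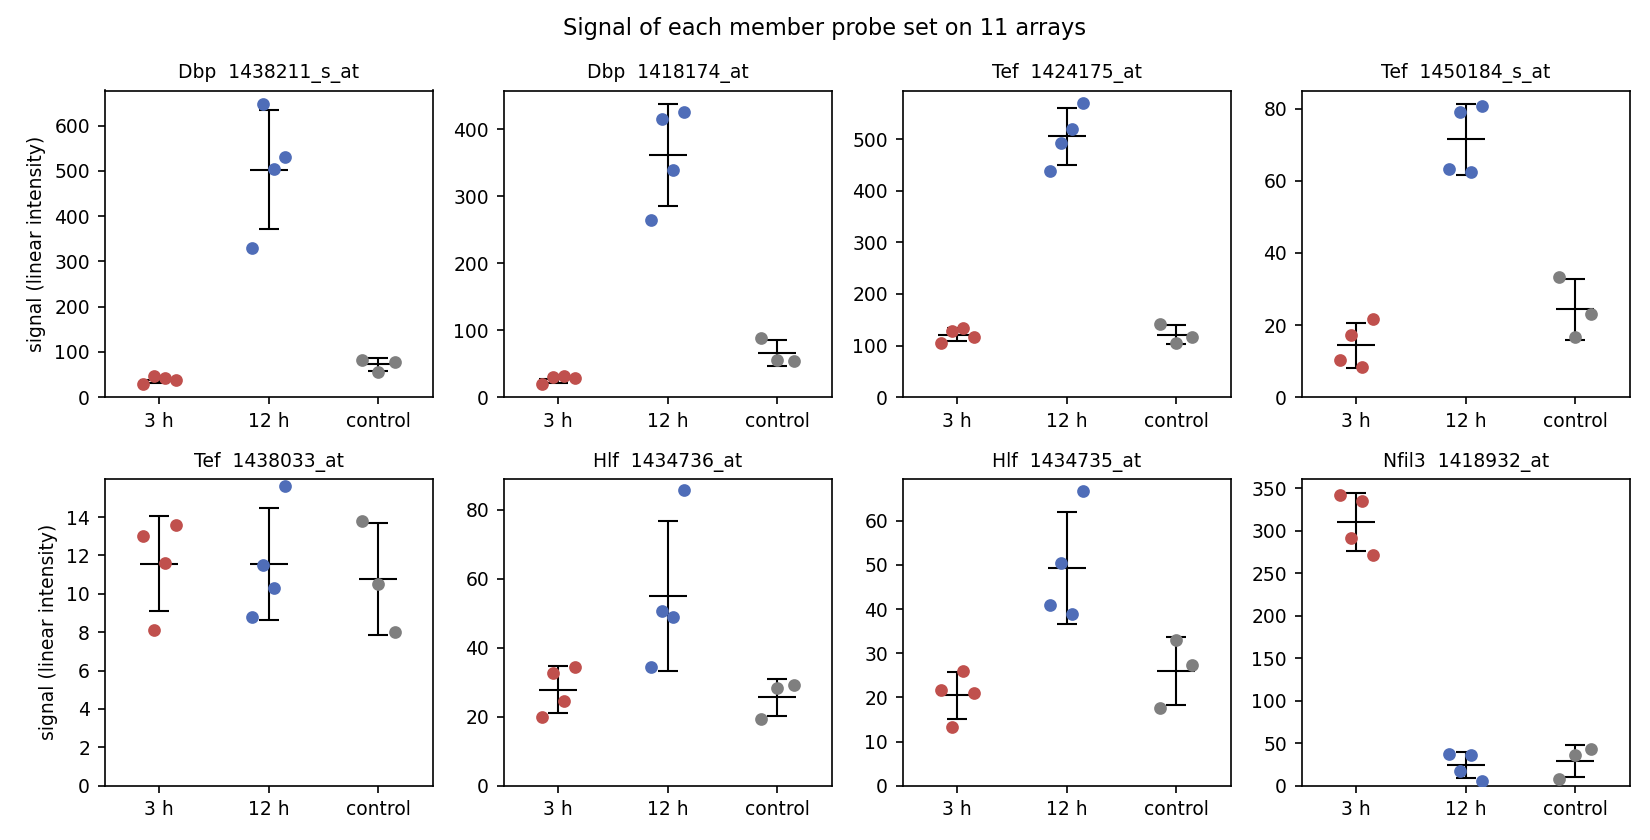
Signal (linear intensity, each axis starting at 0) of the 8 probe sets of Dbp, Tef, Hlf and Nfil3 on each array 3 h and 12 h after imatinib and in control. Points are arrays, and bars give the mean and SD (n = 4, 4 and 3). The 3 h arrays of Nfil3 sit between 271.3 and 341.4, and the 12 h arrays of the brighter Dbp probe set between 329.3 and 646.6, all above the control arrays.

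The first comparison asked which of these factors differed 3 h after imatinib. Nfil3, the D-box repressor, rose, and it was the only one of the 4 that passed the test at this time. Its signal was 341.4, 291.7, 335.2 and 271.3 on the 3 h arrays, against 8.1, 35.8 and 43.3 on the control arrays. Every 3 h array lay far above every control array, and the 3 h arrays were close to each other while control replicate 1 was the lowest of its group. Means were 309.9 ± 33.9 (SD, n = 4) at 3 h and 29.07 ± 18.5 (SD, n = 3) in control, a ratio of 10.7 between mean signals. The log2 change was 2.95 ± 0.33 (SE; limma adjusted p = 0.000703), the fourth largest of the 261 rises called at 3 h. In all, 2.54% of genes were called at 3 h, 1.43% as rises and 1.11% as falls. Of all genes, 6.76% had every 3 h array above every control array. In bulk colon RNA, a change in the number of cells of a type and a change in RNA per cell cannot be told apart. This holds here and in the results that follow.

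Dbp, the PAR factor named for the D site of the albumin promoter, had lower signals at 3 h on both of its probe sets but missed the threshold. The brighter probe set, 1438211_s_at, read 28.2, 46.1, 41.4 and 38.6 on the 3 h arrays, against 83.2, 55.5 and 78.5 on the control arrays. The other, 1418174_at, read 19.0, 30.3, 31.8 and 28.5 at 3 h, against 87.8, 55.5 and 54.7 in control. On neither did the groups overlap, a separation that 15.3% of all genes showed in one direction or the other and 8.55% with the 3 h arrays lower. The log2 change of the brighter one was -0.69 ± 0.20 (SE; limma adjusted p = 0.107), with a 95% interval from -1.14 to -0.25. The other differed by -0.90 ± 0.19 on that scale (SE; limma adjusted p = 0.0516 over all probe sets). Leaving out 12 h replicate 1, which enters this comparison only through the shared estimate of the spread, brought the brighter probe set past the threshold (limma adjusted p = 0.0404). That was so for 1 of the 11 arrays, and the highest limma adjusted p without 1 array was 0.321.

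Tef, named thyrotroph embryonic factor, and Hlf, hepatic leukaemia factor, did not pass the test at 3 h. The bright Tef probe set 1424175_at read 105.1, 128.5, 134.1 and 116.0 on the 3 h arrays, against 140.9, 104.7 and 116.3 on the control arrays. Those ranges overlapped, and the log2 change was 0.01 ± 0.13 (SE; limma adjusted p = 0.991) with a 95% interval from -0.27 to 0.28. The dimmer Tef probe set 1450184_s_at averaged 14.4 ± 6.23 (SD, n = 4) at 3 h and 24.33 ± 8.38 (SD, n = 3) in control, a log2 difference of -0.41 ± 0.18 (SE; limma adjusted p = 0.424 over all probe sets). Hlf was dim throughout. Its 2 probe sets had log2 changes of 0.07 ± 0.21 (SE; limma adjusted p = 0.928) and -0.20 ± 0.18 (SE; limma adjusted p = 0.793 over all probe sets). Their 95% intervals, from -0.38 to 0.52 and from -0.59 to 0.19, include changes in either direction.

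The second comparison, at 12 h against the same 3 control arrays, asked what differed at the later time, and here Dbp and Tef were high. Dbp and Tef rose, 2 of the 4 members, where 1.62% of all genes were called, 0.781% as rises and 0.835% as falls. The brighter Dbp probe set read 329.3, 646.6, 503.9 and 529.5 on the 12 h arrays, against 83.2, 55.5 and 78.5 on the control arrays. All 12 h arrays lay above all control arrays by a wide margin, with 12 h replicate 1 the lowest of the 4. Of all genes, 6.02% had every 12 h array above every control array. Dbp averaged 502.3 ± 131 (SD, n = 4) at 12 h and 72.4 ± 14.8 (SD, n = 3) in control, a ratio of 6.94 between mean signals. Its log2 change of 2.53 ± 0.20 (SE; limma adjusted p = 0.000126) was the largest of the 142 rises called at 12 h. The other Dbp probe set read 264.6, 416.0, 338.9 and 426.5 at 12 h, against 87.8, 55.5 and 54.7 in control, a log2 difference of 2.20 ± 0.19 (SE; limma adjusted p = 0.000602 over all probe sets).

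Tef followed Dbp with a smaller change. Probe set 1424175_at read 439.1, 492.4, 520.2 and 570.7 on the 12 h arrays, against 140.9, 104.7 and 116.3 on the control arrays. The 12 h arrays were all more than 3 times as bright as the brightest control array. Tef averaged 505.6 ± 54.9 (SD, n = 4) at 12 h and 120.6 ± 18.5 (SD, n = 3) in control, and the log2 change was 1.94 ± 0.13 (SE; limma adjusted p = 2.79e-05). The second Tef probe set, 1450184_s_at, read 63.4, 79.2, 62.5 and 80.9 at 12 h, against 33.3, 16.7 and 23.0 in control. It too was called, at 1.13 ± 0.18 on the log2 scale (SE; limma adjusted p = 0.0217 over all probe sets, of which 0.486% were called). The third, 1438033_at, stayed under a signal of 16 on all 11 arrays and differed by 0.04 ± 0.12 on the log2 scale (SE; limma adjusted p = 0.944 over all probe sets). So both brighter Tef probe sets rose at 12 h. The dimmest one carried no signal above the offset in any group, which limits what it can show.

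Hlf had higher signals at 12 h on both probe sets without passing the test. Probe set 1434736_at read 34.4, 50.7, 49.0 and 85.6 on the 12 h arrays, against 19.4, 28.2 and 29.2 on the control arrays. Probe set 1434735_at read 41.0, 50.4, 39.0 and 66.8 at 12 h, against 17.6, 32.9 and 27.4 in control. The groups did not overlap on either, as was so for 13% of all genes, 6.02% with the 12 h arrays higher and 6.96% with them lower, and 12 h replicate 4 was the brightest on both. The log2 changes were 0.73 ± 0.21 (SE; limma adjusted p = 0.105) and 0.64 ± 0.18 (SE; limma adjusted p = 0.163 over all probe sets). The 95% interval of the first ran from 0.28 to 1.18, below that of Tef, which ran from 1.66 to 2.21, but a difference between genes was not tested.

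Nfil3 at 12 h could not be distinguished from control. It read 37.6, 17.0, 35.6 and 5.9 on the 12 h arrays, against 8.1, 35.8 and 43.3 on the control arrays. The ranges overlapped over most of their length, and the log2 change was -0.16 ± 0.33 (SE; limma adjusted p = 0.883). The 95% interval, from -0.89 to 0.57, includes changes in either direction. At these signals the probe set was near the offset, and 2 of the 7 values were below 16.

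**Figure D2:**
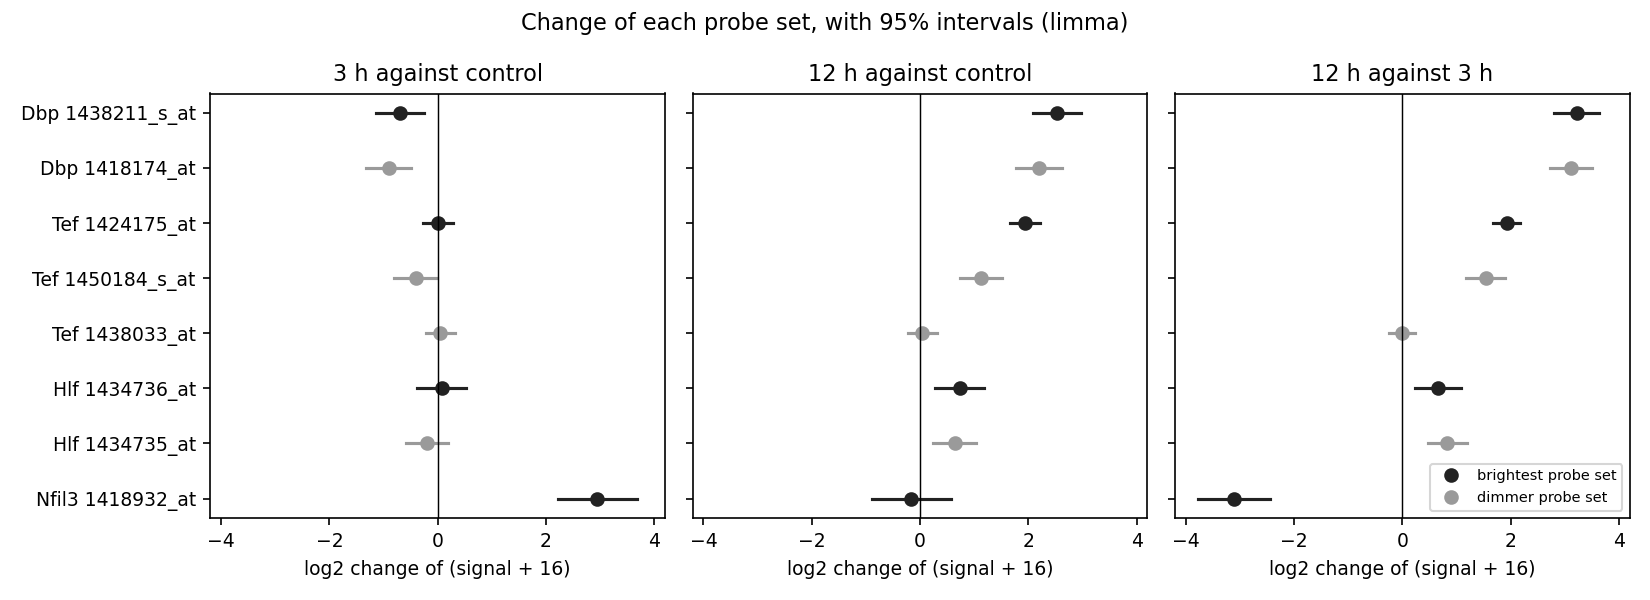
Log2 change of signal + 16 (x axis) for each of the 8 probe sets in the 3 comparisons, with 95% intervals from limma. Black points are the brightest probe set of a gene and grey points the dimmer ones; Nfil3 lies at 2.95 at 3 h, and Dbp and Tef lie at 2.53 and 1.94 at 12 h.

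Between the 2 times after injection, 12 h against 3 h, Dbp and Nfil3 had log2 changes of larger size than at either time against control. The excess came from changes against control that were not called, -0.69 for Dbp at 3 h and -0.16 for Nfil3 at 12 h. Dbp and Tef rose and Nfil3 fell, 3 of 4 members, where 4.08% of all genes were called, 1.99% as rises and 2.09% as falls. This comparison uses the same 3 h and 12 h arrays as the comparisons with control, so its values restate theirs without the control arrays. Dbp averaged 502.3 ± 131 (SD, n = 4) at 12 h and 38.57 ± 7.58 (SD, n = 4) at 3 h, a ratio of 13 between mean signals. Its log2 change was 3.22 ± 0.19 (SE; limma adjusted p = 5.55e-06), the largest of 362 rises called between these times, and that of Tef, 1.93 ± 0.12 (SE; limma adjusted p = 5.99e-06), was the fourth. Nfil3 fell to 24.03 ± 15.2 (SD, n = 4) at 12 h, against 309.9 ± 33.9 (SD, n = 4) at 3 h. Its log2 change of -3.11 ± 0.31 (SE; limma adjusted p = 0.000187) was the largest of 380 falls called and the lowest value of all 18193 genes.

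Hlf sat at the edge of the test between the 2 times, and its probe sets lay on either side of it. Probe set 1434736_at read 34.4, 50.7, 49.0 and 85.6 at 12 h, against 19.9, 32.7, 24.5 and 34.4 at 3 h. The lowest 12 h array and the highest 3 h array had the same signal, and the log2 change was 0.66 ± 0.19 (SE; limma adjusted p = 0.0837). Probe set 1434735_at read 41.0, 50.4, 39.0 and 66.8 at 12 h, against 21.7, 13.2, 25.9 and 21.1 at 3 h. There the groups did not overlap, as was so for 11.5% of all genes, 6.28% with the 12 h arrays higher and 5.26% with them lower, and the log2 change of 0.83 ± 0.17 passed the test (SE; limma adjusted p = 0.0301 over all probe sets, of which 1.74% were called). With the mean of both probe sets as the value of the gene, Hlf was called at 0.75 (limma adjusted p = 0.0233), and without 12 h replicate 1 it was called at 0.81 (limma adjusted p = 0.0392). Without any other single array the brighter probe set stayed uncalled, with a limma adjusted p of up to 0.204.

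By level, the 3 groups ordered differently for the activators and the repressor. For Dbp the order from high to low was 12 h, control, 3 h, with 12 h above both others by the test and the step between control and 3 h not called. For Tef it was 12 h, then 3 h and control, which did not differ beyond their spread. For Hlf it was 12 h, then 3 h and control, and no step was called on its brighter probe set. For Nfil3 it was 3 h, then control and 12 h, and the last pair again did not differ beyond its spread. Without the 5 arrays high in pancreatic transcripts, an alternative chosen after seeing the data, 1 array was left at 12 h and was assumed to vary like the other groups. The rise of Nfil3 at 3 h was then 2.51 on the log2 scale (limma adjusted p = 0.0057), and its fall between 12 h and 3 h was -3.26 (limma adjusted p = 0.00402). The log2 change of Dbp at 12 h was 3.01 against control (limma adjusted p = 0.0373) and 3.64 against 3 h (limma adjusted p = 0.00821). That of Tef at 12 h was 2.01 against control (limma adjusted p = 0.0373) and 1.94 against 3 h (limma adjusted p = 0.0259). Every call of a member by the gene fit thus held on the 6 other arrays.

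Array by array, each 3 h array lay 2.77 to 3.09 above the control mean for Nfil3 and 0.49 to 0.99 below it for Dbp on the log2 scale. Each 12 h array lay 1.98 to 2.92 above the control mean for Dbp and 1.74 to 2.11 above it for Tef. Among the 12 h arrays the order of Hlf on probe set 1434736_at was the reverse of that of Nfil3: replicate 4 had the highest Hlf (85.6) and the lowest Nfil3 (5.9), and replicate 1 the lowest Hlf (34.4) and the highest Nfil3 (37.6). On the other Hlf probe set replicate 4 was again the highest (66.8), but replicate 3 was the lowest (39.0), so the order was not the full reverse. The reverse order was also found for Dbp 1418174_at and for Tef 1438033_at, the latter under a signal of 16 on all 11 arrays. It was not found for Dbp 1438211_s_at, Tef 1424175_at or Tef 1450184_s_at. The Nfil3 values here lay near or below the offset of 16, which limits what their order can show. These are orders over 4 arrays, given as a description.

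**Figure D3:**
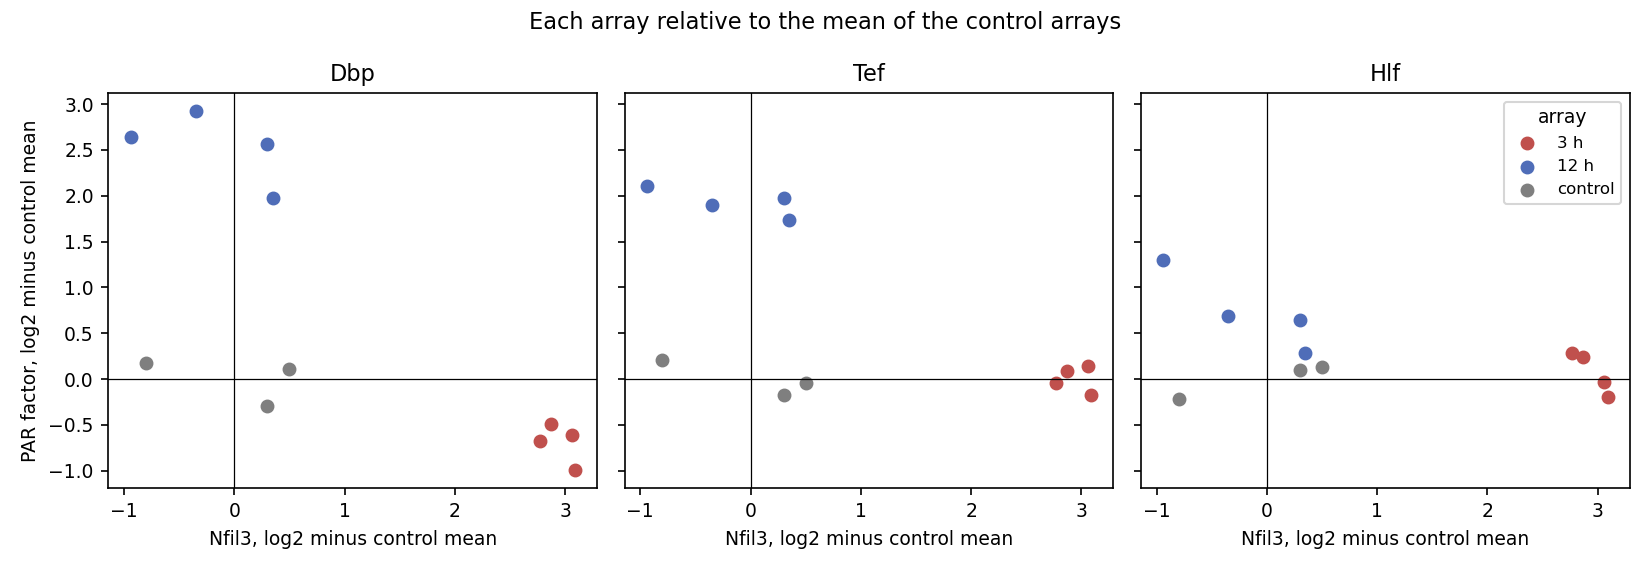
Each point is 1 array, with the log2 level of Nfil3 (x axis) and of Dbp, Tef or Hlf (y axis), both as the difference from the mean of the 3 control arrays. The 3 h arrays lie at Nfil3 values from 2.77 to 3.09, and the 12 h arrays lie at Dbp values from 1.98 to 2.92 with Nfil3 between -0.94 and 0.35.

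Over the 11 arrays Pearson's r was 0.97 between Dbp and Tef, 0.79 between Dbp and Hlf and 0.81 between Tef and Hlf. It was -0.73 between Nfil3 and Dbp, -0.60 between Nfil3 and Tef and -0.48 between Nfil3 and Hlf. These values follow the 3 group means and are given as a description. The 2 Dbp probe sets had r = 0.99 with each other, the 2 Hlf probe sets 0.81 and the 2 brighter Tef probe sets 0.93. The dimmest Tef probe set had r = 0.11 with the brightest.

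Genes with the most similar pattern over the 11 arrays were sought among 8969 named genes with a mean signal of at least 50. For Dbp they were Lefty1, an inhibitor of Nodal signalling (r = 0.987), the clock repressor Per2 (0.987), Hectd3 (0.965) and Nanp (0.960). Lefty1 averaged 162 ± 21.4 (SD, n = 4) at 12 h and 54.3 ± 6.61 (SD, n = 4) at 3 h, with 70.9 ± 3.36 (SD, n = 3) in control. For Tef they were Per2 (0.983), Lefty1 (0.971), the sterol desaturase gene Sc5d (0.961) and the clock repressor Cry2 (0.953). For Hlf they were Adck2 (0.972), Kbtbd4 (0.941), the REV-ERB beta gene Nr1d2 (0.940) and Cebpg (0.906). For Nfil3 they were the nuclear receptor gene Nr4a2 (0.979), the glycolysis regulator Pfkfb3 (0.970), the phosphatase gene Ptpn2 (0.970) and the matrix protease gene Adamts4 (0.968). Pfkfb3 averaged 119.4 ± 15.4 (SD, n = 4) at 3 h and 21.4 ± 7.03 (SD, n = 4) at 12 h, with 23.9 ± 6.88 (SD, n = 3) in control. Per2 and Lefty1 were thus among the 4 nearest genes of both Dbp and Tef. Some of these genes, such as Per2, Pfkfb3 and Nr4a2, reached the mean signal of 50 only through the group in which they were high.

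Some clock genes whose transcripts peak near those of Per and Dbp in other mouse tissues rose at 12 h, as Dbp and Tef did. Of 9 such genes 4 rose and none fell at 12 h, with a median log2 change of 0.81 against -0.01 over all genes. Per2 (2.28 ± 0.12 SE), Ciart (1.51 ± 0.13 SE), Per1 (1.10 ± 0.11 SE) and Cry2 (0.83 ± 0.13 SE), all repressors of CLOCK and BMAL1, made up the 4, with limma adjusted p of at most 0.00908. At 3 h 1 of 9 rose, Per1, at 0.80 ± 0.11 (SE; limma adjusted p = 0.0024), and the median was -0.07 against -0.02 over all genes. Per1 averaged 82.6 ± 4.41 (SD, n = 4) at 3 h and 40.87 ± 4.66 (SD, n = 3) in control, on arrays where Dbp was below control. Nr1d1, the REV-ERB alpha gene and a repressor of Nfil3 in liver, had log2 changes of -0.53 ± 0.20 at 3 h and -0.67 ± 0.20 at 12 h (SE; limma adjusted p = 0.204 and 0.117). Its relative Nr1d2 had values of 0.06 ± 0.21 at 3 h and 0.81 ± 0.21 at 12 h (SE; limma adjusted p = 0.945 and 0.081). Between 12 h and 3 h, Per2, Ciart, Cry2 and Bhlhe40 rose, 4 of 9, and the Bhlhe40 call (0.68, limma adjusted p = 0.0335) was lost when any of 7 arrays was left out. For this list and those below, the shares of all genes called as rises and as falls were 1.43% and 1.11% at 3 h. The shares were 0.781% and 0.835% at 12 h, and 1.99% and 2.09% between the times.

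Among 7 measured clock activators, ROR receptors and Cry1, the BMAL1 gene Arntl and its partner gene Npas2 fell at 12 h and none rose. Npas2 averaged 33.47 ± 10.6 (SD, n = 4) at 12 h and 185.3 ± 11.5 (SD, n = 3) in control, a log2 difference of -2.05 ± 0.16 (SE; limma adjusted p = 0.0001). Arntl fell as well, at -1.30 ± 0.11 (SE; limma adjusted p = 0.000195). At 3 h 1 of the 7 fell, Clock (-0.45 ± 0.09 SE; limma adjusted p = 0.0283), a call lost when any of 6 arrays was left out. Medians of the 7 were -0.31 at 3 h and -0.23 at 12 h, against -0.02 and -0.01 over all genes. Between 12 h and 3 h Cry1 rose (0.88 ± 0.18 SE; limma adjusted p = 0.0218, lost without any of 4 arrays) and Arntl and Npas2 fell.

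Genes described elsewhere as output of PAR bZIP factors, NFIL3 or the clock in liver, kidney, brain or gut rose in part. Of 12 measured, 3 rose and none fell at 12 h, with a median log2 change of 0.33 against -0.01 over all genes. They were Usp2, a ubiquitin protease gene under clock control (2.09 ± 0.18 SE; limma adjusted p = 0.000195), the ileal bile acid transporter gene Slc10a2 (2.25 ± 0.26 SE; limma adjusted p = 0.00166) and Alas1. Alas1, which encodes the first enzyme of haem synthesis, averaged 902.6 ± 137 (SD, n = 4) at 12 h and 501.8 ± 85 (SD, n = 3) in control (0.83 ± 0.14 SE; limma adjusted p = 0.0164). The Alas1 call was lost without control replicate 1 or 2 or 12 h replicate 3. At 3 h 1 of 12 rose, Slc10a2 (1.87 ± 0.26 SE; limma adjusted p = 0.00377), and the median was 0.06. Slc10a2 averaged 67.85 ± 19.6 (SD, n = 4) at 3 h and 95.82 ± 37.8 (SD, n = 4) at 12 h, against 7 ± 5.52 (SD, n = 3) in control. Usp2 at 3 h differed by 0.69 ± 0.18 on the log2 scale (SE; limma adjusted p = 0.0688).

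Between 12 h and 3 h, 3 of these 12 output genes rose and none fell. They were Usp2 (1.41 ± 0.17 SE), Alas1 (0.77 ± 0.13 SE) and Pdxk (0.54 ± 0.11 SE), with limma adjusted p of at most 0.0188. Pdxk encodes pyridoxal kinase, which in mouse brain depends on the PAR factors, and its call was lost without 3 h replicate 1 or 2. Ppara differed by 0.82 ± 0.20 on the log2 scale at 12 h against control (SE; limma adjusted p = 0.0704). The cell cycle kinase gene Wee1 differed between 12 h and 3 h by 0.83 ± 0.23 (SE; limma adjusted p = 0.0766) and the hormone gene Fgf21 by 0.36 ± 0.16 (SE; limma adjusted p = 0.281).

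The lipid genes that depend on NFIL3 in mouse small intestinal epithelium were Cd36, Scd1, Cidec and Fabp4, of which 2 rose at 3 h and none fell. Scd1, a fatty acid desaturase gene, averaged 1125 ± 164 (SD, n = 4) at 3 h and 486.9 ± 114 (SD, n = 3) in control, a log2 difference of 1.20 ± 0.19 (SE; limma adjusted p = 0.00739). Fabp4, a fatty acid carrier gene, rose on the log2 scale by 1.16 ± 0.21 at 3 h (SE; limma adjusted p = 0.0161) and by 1.11 ± 0.21 at 12 h (SE; limma adjusted p = 0.0276). Each of these Fabp4 calls was lost when any of 4 arrays was left out. Between 12 h and 3 h Scd1 fell by 0.85 ± 0.18 on that scale (SE; limma adjusted p = 0.02), also lost without any of 4 arrays. Fat cells express these genes too, and the summed signal of 5 fat markers was 550.7 to 867.1 at 3 h and 249.4 to 714.8 at 12 h, against 224.6 to 367.1 in control. None of the 5 passed limma's test at 3 h, at 12 h or between them. At an unadjusted p under 0.05 there were 2, 1 and 1 of the 5 in these comparisons, where 15%, 15.8% and 17.7% of all genes had one. At 3 h the log2 changes were 1.36 ± 0.37 for Adipoq and 0.81 ± 0.23 for Retn (SE; limma adjusted p = 0.08 and 0.0903). They were 0.18 ± 0.21 for Lep, 0.14 ± 0.26 for Cidea and -0.01 ± 0.17 for Lipe (SE). Lep was below 16 on every array, and the part of fat in the changes of the lipid genes was not tested.

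Genes of C/EBP factors, bZIP proteins that can bind sites like the D-box, rose in part at 3 h, as Nfil3 did. Of 5 measured, Cebpb (1.84 ± 0.18 SE; limma adjusted p = 0.000319) and Cebpd (2.18 ± 0.29 SE; limma adjusted p = 0.00243) rose and none fell. Cebpd averaged 1795 ± 330 (SD, n = 4) at 3 h and 389.9 ± 117 (SD, n = 3) in control. None of the 5 passed the test at 12 h, while 2 had an unadjusted limma p under 0.05, where 15.8% of all genes had one. Between 12 h and 3 h Cebpb (-1.38 ± 0.17 SE; limma adjusted p = 0.000919) and Cebpd (-1.80 ± 0.27 SE; limma adjusted p = 0.00315) fell, as Nfil3 did. Medians of the 5 were 0.17 at 3 h and 0.37 at 12 h against control.

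With the 5 pancreas-high arrays left out, most of these list calls no longer passed the test on the 6 remaining arrays, while many log2 changes stayed close to those above. At 3 h Cebpb (1.72, limma adjusted p = 0.0123) and Cebpd (1.94, 0.028) were still called. Per1 (0.74, limma adjusted p = 0.0623), Slc10a2 (1.66, 0.0511), Scd1 (1.02, 0.0977), Fabp4 (1.17, 0.0743) and Clock (-0.48, 0.167) were not. At 12 h, with 1 array left, Per2 (2.55, limma adjusted p = 0.0165) and Npas2 (-2.13, 0.0373) were still called. Arntl (-1.42, limma adjusted p = 0.0935), Per1 (1.16, 0.0942), Slc10a2 (2.64, 0.0919), Usp2 (1.94, 0.109), Ciart (1.53, 0.148) and Cry2 (0.75, 0.317) were not, at changes of similar size. Fabp4 (0.73, limma adjusted p = 0.456) and Alas1 (0.54, 0.468) had smaller changes there and were not called either. In the comparison of 12 h with 3 h, Per2 (2.88, limma adjusted p = 0.00402) and Npas2 (-1.82, 0.045) were still called and the other list genes were not.

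**Figure D4:**
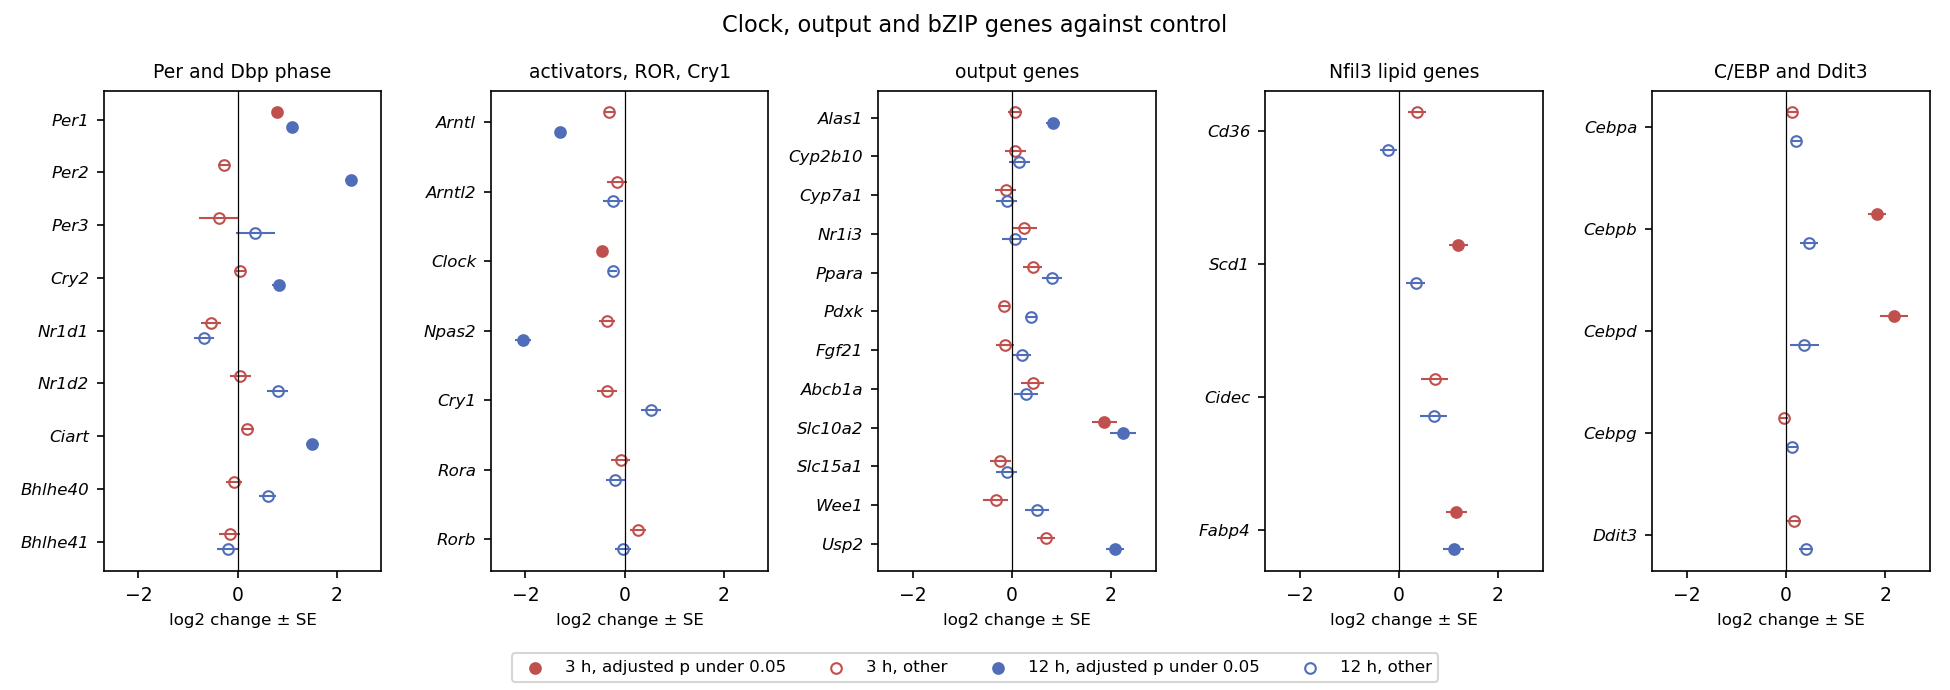
Log2 change against control (x axis, ± SE from limma) of the genes of 5 lists, 3 h in red above 12 h in blue. Filled points have an adjusted p under 0.05; Per2 (2.28), Ciart (1.51) and Usp2 (2.09) stand high at 12 h, and Cebpb (1.84) and Cebpd (2.18) at 3 h.

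Lymphoid cells, in which NFIL3 is also at work, were followed by 14 measured markers. Their summed signal was 631.1 to 674.5 at 3 h and 431.2 to 580.9 at 12 h, against 434.7 to 503.1 in control. Much of the difference in the sum at 3 h was Id2, which other cells express as well and which averaged 310.4 ± 16.9 (SD, n = 4) at 3 h and 158.6 ± 9.45 (SD, n = 3) in control. Id2 was the 1 marker of 14 that passed the test at 3 h (0.90 ± 0.13 SE; limma adjusted p = 0.0038), and the median log2 change of the 14 was 0.04, against -0.02 over all genes. The defining factors Eomes, Tbx21 and Gata3 were below a signal of 16 on all 11 arrays, and the part of lymphoid cells in the rise of Nfil3 was not tested. At 12 h, where Dbp and Tef were high, fibroblast markers were low. Of 6, 4 fell (Col1a1, Col1a2, Col3a1 and Lum), 3 of these calls were lost when some single array was left out, and the summed signal of the 6 was 6296 to 6961 at 12 h, against 9270 to 12290 in control. Without the 5 pancreas-high arrays none of the 4 was called, at log2 changes of -0.65 for Col1a2, -0.65 for Col3a1, -1.03 for Lum and -0.61 for Col1a1, against -0.72, -0.73, -0.96 and -1.01 with all arrays. Smooth muscle markers had log2 changes with a median of -0.57 at 12 h against control, and 0 of 5 passed limma's test there. All 5 had an unadjusted limma p under 0.05, where 15.8% of all genes had one. Between 12 h and 3 h, 2 of the 5 fell, Actg2 and Des (limma adjusted p = 0.0247 and 0.0218). Each of these calls was lost when any of 6 arrays was left out. Of the 6 fibroblast markers, 3 fell between the times (Col1a1, Col1a2 and Col3a1), where 2.09% of all genes were called as falls. The Col1a1 and Col3a1 calls were lost when some single array was left out. The part of such shifts in the PAR factor rises was not tested.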

How the data were processed

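The deposited table holds linear intensities, 1 signal for each of 45101 probe sets (64 of them controls) on an Affymetrix mouse array, per the file headers. Per the labels' protocols, RNA was extracted with Trizol. The summary software is not given in the sources used here. Each array's deposited intensity values averaged 100 after trimming 2% at each end, so each had been scaled by 1 factor. Array medians were 16.8 to 23.9. Precision is limited by the 3 or 4 arrays per group.

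Gene symbols came from GEO's platform annotation and were brought up to date through Entrez identifiers in RefSeq GRCm38.p6 (99.1% found). Of 45037 probe sets, 34945 had 1 symbol, 932 several and 9160 none. The brightest probe set represented each gene. Contrasts were fitted to log2(signal + 16) on all 11 arrays with limma 3.58.1 in R 4.3.3 (8 residual and 3.98 prior degrees of freedom), 2-sided, with no level filter. The same fit was run over every probe set. The procedure was tested on simulated data.

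The members and lists were chosen with earlier results of these data known. Named genes were the members, list genes that passed the test in any contrast with up to 3 others per list by smallest p, and for each member the 4 genes with the highest Pearson r. Fibroblast and other cell type markers are named from their own lists. Alternatives covered scaling, offset, level filter, probe sets, variance prior, array weights, arrays in the fit, replicate block, threshold and leaving out each array. Por and Cyp2a5 of the output list and Cebpe of the C/EBP list were not analysed here.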

Additional observations from a re-analysis of the deposited data

Results flagged for a closer look

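The change from control differed between the 2 times for 3 members, by limma's test of 12 h against 3 h. For Dbp the change at 12 h exceeded that at 3 h by 3.22 on the log2 scale (limma adjusted p = 5.55e-06), with every 12 h array above and every 3 h array below the control arrays. For Tef it exceeded it by 1.93 (limma adjusted p = 5.99e-06), with every 12 h array above every 3 h array. For Nfil3 the difference was -3.11 (limma adjusted p = 0.000187), with every 12 h array below every 3 h array. Of all genes, 6.28% had every 12 h array above every 3 h array and 5.26% every 12 h array below. Against control, 6.02% had every 12 h array higher and 8.55% every 3 h array lower.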

How the results depend on the processing

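The calls of Dbp and Tef at 12 h, of Nfil3 at 3 h, and of all 3 between 12 h and 3 h held under each of the 14 alternatives and without each of the 11 arrays. The looser threshold of 0.1 could not end any of these calls, so it adds no support. Nfil3 has 1 probe set, so the mean of all probe sets only repeated its log2 changes. For Nfil3 the filter on a mean signal of at least 50 adds no support. Nfil3 passed that filter only through its 3 h arrays (mean 309.9, against 24.03 at 12 h and 29.07 in control). The count of genes called moved far more. In the comparisons of 3 h with control, of 12 h with control and of 12 h with 3 h, it was 228, 80 and 437 with an offset of 1, 127, 53 and 236 at a threshold of 0.01, and 879, 682 and 1276 at 0.1. Without the arrays high in pancreatic transcripts it was 80, 8 and 16, on fewer arrays. With equal medians it was 283 (205 higher, 78 lower), 209 (147 higher, 62 lower) and 460. At 12 h against control it was 619 among genes with a mean signal of at least 50, 492 with an offset of 64, 527 with a trended robust prior and 60 with only those arrays in the fit. Leaving out 1 array gave 161 to 520, 63 to 449 and 391 to 755. The count moved by over 1.5 times without any 3 h array or control replicate 1 or 2 for 3 h, without control replicate 1 or 2 or 12 h replicate 2, 3 or 4 for 12 h, and without any 3 h array or 12 h replicate 2 between the times. Replicate numbers were not used as pairs in the main fit. Correlations of deviations were -0.21 to 0.31 for same-numbered arrays and -0.4 to 0.31 for differently numbered ones. These ranges overlap and cannot decide whether the numbers pair samples. With the replicate block the counts were 278, 182 and 467, Hlf between 12 h and 3 h was called at 0.66 (limma adjusted p = 0.0216), Nfil3 at 12 h was 0.00, and at 3 h Hlf was -0.06 and Tef -0.01. Hlf between 12 h and 3 h was also called as the mean of its probe sets (0.75) and at a threshold of 0.1 (0.66). As means of their probe sets, Hlf was -0.06 and Tef -0.12 at 3 h, and Hlf was -0.01 there without the pancreas-high arrays. Leaving out 1 array gave, at 3 h, -0.84 to -0.59 for Dbp, -0.04 to 0.16 for Hlf and -0.08 to 0.11 for Tef, with 1 to 2 members called. It gave -0.56 to 0.10 for Nfil3 at 12 h, and 0.47 to 0.81 for Hlf between 12 h and 3 h. None of the uncalled values that turned sign passed the test, and the cause of these shifts was not tested. Hlf had no value under the filter on a mean signal of 50. Levels near the offset of 16, as for Hlf and for Nfil3 outside 3 h, limit what could be measured.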
